A study of Mus musculus with 2 samples.

Results

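Claudins are membrane proteins that polymerise into the strands of tight junctions, the belts that seal the space between neighbouring epithelial or endothelial cells. Some claudins tighten this seal, others form pores for ions, and the mixture a cell expresses sets how leaky its layer is. In the developing lung these junctions separate the fluid-filled lumen of the branching epithelium from the mesenchyme around it.

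The genes described here were 32 of the 41709 in the deposited tables. They were picked by name and comprised 19 claudins, occludin with 2 relatives, 3 junctional adhesion molecules, 4 cytoplasmic scaffold proteins, 2 polarity genes and E-cadherin. All 32 were found by their NCBI gene number. Of these, 24 reached 50 reads in at least 1 library, 21 in both libraries and 3 in only 1 (Cldn5, Cldn9 and Cldn10), and 8 claudins stayed below that minimum. A gene that reaches the minimum through 1 library alone can look different for that reason, so counts over the 24 are given as description.

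The data were polyadenylated RNA of whole lungs from C57BL/6 embryos at E14.5, a stage at which the airways are branching. There were 2 libraries, 1 with the genotype label Prmt5 knockdown and 1 labelled control, which the series text calls wild type, and each came from 7 pooled lungs. The title of the knockdown library names Shh together with Prmt5, and the labels do not say which allele, promoter or cell type was used. The knockdown library held 25829281 counted reads and the control library 22581490.

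Prmt5, an arginine methyltransferase, had 2127 reads in the knockdown and 2704 in the control library, a log2 ratio of -0.43 (95% interval -0.51 to -0.35) that did not pass the rule of size given next. Shh, the hedgehog ligand of lung epithelium, had 109 reads in the knockdown and 1124 in the control library (log2 -3.44). Ratios are knockdown over control after scaling by the trimmed mean of M values, and intervals are exact for the 2 counts and cover counting error only. A gene was taken as higher or lower when 3 conditions held: 50 reads or more in a library, a change of 1.5-fold or more in either direction, and an interval that left out no difference. With 1 library per group no spread between animals is known, no difference has a replicate check, and no p-value is given. In whole-lung RNA, fewer cells of a type cannot be told apart from less RNA per cell.

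The knockdown library also carried genes of other organs. All 13 liver genes were higher, with log2 ratios between 5.68 and 9.0, and so were all 12 heart muscle genes, between 2.93 and 8.47. Of 17 lung epithelium genes 14 were lower and 2, Bex2 and Abca3, were higher (median log2 -2.07). The surfactant gene Sftpc had 1313 reads in the knockdown and 8880 in the control library, and Nkx2-1, the factor that specifies lung epithelium, had 895 and 7550. The control library was not free of reads of such genes either, with 474 reads of Alb against 105934 in the knockdown library. Where the control reads came from was not tested.

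In the knockdown library Cldn3, Cldn4, Cldn6, Cldn9, Cldn10 and Cldn18 were lower, Cldn1 and Cldn11 were higher, and Cldn5, Cldn12 and Cldn15 did not pass. Of 11 claudins that reached 50 reads, 6 were lower and 2 higher, where 12.3% of all 14569 measured genes were lower and 20.7% were higher. Over all 24 measured tight junction genes, 11 were lower, 2 were higher and 11 did not pass, against 33.0% of measured genes past the rule in either direction. Their median log2 ratio was -0.51, beside -0.01 for all measured genes, and the claudins alone had a median of -1.02.

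The sequences around the start sites of 4 of these claudins and of cingulin are printed first. They belong to 3 lower claudins that together made most of the claudin FPKM of the control library, and to Cldn1. Cldn1 is the claudin with the larger ratio of the 2 that were higher, and cingulin is the scaffold gene whose window held a rarer motif. Each is a RefSeq window of 300 bases on GRCm38.p6 that ends 50 bases after a start, written 5′ to 3′ along the gene's strand. Capitals mark ACCTG on either strand, a short stretch found within sites of the repressors SNAIL and ZEB. They also mark AACCNGTT, the motif of grainyhead-like factors that act in epithelia. A match to ACCTG need not be a whole site of these repressors.

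Cldn3, chr5:134985964-134986263, plus strand: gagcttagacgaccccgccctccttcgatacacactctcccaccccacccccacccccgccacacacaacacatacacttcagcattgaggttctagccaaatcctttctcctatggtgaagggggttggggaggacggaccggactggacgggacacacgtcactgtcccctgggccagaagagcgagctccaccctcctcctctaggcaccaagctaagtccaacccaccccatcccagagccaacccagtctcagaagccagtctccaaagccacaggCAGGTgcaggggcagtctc

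Cldn4, chr5:134946885-134947184, minus strand: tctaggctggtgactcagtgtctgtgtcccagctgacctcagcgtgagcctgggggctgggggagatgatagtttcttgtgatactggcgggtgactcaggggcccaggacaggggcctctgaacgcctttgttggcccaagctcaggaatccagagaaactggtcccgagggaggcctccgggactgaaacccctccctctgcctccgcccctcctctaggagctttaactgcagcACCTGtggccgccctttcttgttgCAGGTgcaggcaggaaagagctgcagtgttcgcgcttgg

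Cldn6, chr17:23679115-23679414, plus strand: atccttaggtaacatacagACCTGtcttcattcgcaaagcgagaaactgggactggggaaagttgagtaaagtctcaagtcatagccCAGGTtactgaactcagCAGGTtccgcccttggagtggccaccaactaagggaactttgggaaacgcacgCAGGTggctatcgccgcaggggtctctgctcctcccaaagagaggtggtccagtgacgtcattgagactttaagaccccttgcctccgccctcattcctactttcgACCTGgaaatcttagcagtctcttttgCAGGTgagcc

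Cldn1, chr16:26371790-26372089, minus strand: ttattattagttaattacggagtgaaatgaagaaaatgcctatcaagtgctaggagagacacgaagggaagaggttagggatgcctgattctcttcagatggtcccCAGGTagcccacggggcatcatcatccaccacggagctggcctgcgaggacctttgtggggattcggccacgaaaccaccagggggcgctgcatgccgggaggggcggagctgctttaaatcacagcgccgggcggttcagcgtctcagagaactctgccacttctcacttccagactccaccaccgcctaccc

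Cgn, chr3:94786433-94786732, minus strand: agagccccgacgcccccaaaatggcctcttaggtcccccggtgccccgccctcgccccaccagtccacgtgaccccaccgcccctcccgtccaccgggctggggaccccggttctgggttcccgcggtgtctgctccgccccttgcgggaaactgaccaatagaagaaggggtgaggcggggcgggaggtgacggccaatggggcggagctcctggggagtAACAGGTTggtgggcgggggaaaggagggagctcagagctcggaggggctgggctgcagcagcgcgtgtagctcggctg

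Windows were at hand for 25 of the 32 genes, 38 in all. They were not matched for Cldn8, Cldn9, Cldn23, Jam2, Jam3, Marveld3 and Cdh1. ACCTG was in 24 of the 38 windows (63.2%) and in 50.1% of all 32851 windows. Some genes have windows that overlap, so a site can count more than once. By gene ACCTG was in 18 of 25, and no such share over all genes is given. The Cldn6 window held ACCTG 6 times and that of Cldn4 2 times. Those of Cldn3 and Cldn1, which lie on opposite sides of even in the libraries, held it once each. AACCNGTT was in 2 of the 38 windows (5.26%), those of Cgn and Cldn5, and in 2.09% of all windows. In both genes this match contains an ACCTG match, so the motifs overlap there. A match describes the letters only and is not a measured binding site.

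Cldn6, a claudin of embryonic epithelia, was the most abundant of the 19 claudins per length in both libraries. It lies on chromosome 17 from 23679348 to 23682446 and had 840 reads in the knockdown and 3569 in the control library, 4.50-fold lower (log2 -2.17, -2.28 to -2.06). Its deposited FPKM, a read count scaled to gene length and library depth, was 21.96 in the knockdown and 106.7 in the control library. Cldn9 sits on the opposite strand 137 bases further along, and had 20 and 64 reads, 3.33-fold lower (log2 -1.74, -2.57 to -1.02). Cldn9 made 0.0238 reads per Cldn6 read in the knockdown and 0.0179 in the control library. The quotient of these was 1.33 (0.757 to 2.24), so a difference between the neighbours was not detectable at this depth.

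Cldn3 and Cldn4, sealing claudins that also bind a clostridial enterotoxin, lie 39279 bases apart on chromosome 5 and are read away from each other. Cldn3 had 417 reads in the knockdown and 1831 in the control library, 4.65-fold lower (log2 -2.22, -2.38 to -2.06). Cldn4 had 324 and 1035 reads, 3.38-fold lower (log2 -1.76, -1.94 to -1.58). Within a library, Cldn4 gave 0.777 reads per Cldn3 read in the knockdown and 0.565 in the control. The quotient of 1.37 (1.16 to 1.62) does not depend on scaling, and so Cldn3 was more reduced than Cldn4 beyond counting error. Cldn6 and Cldn3 kept nearly the same proportion, 2.01 reads in the knockdown and 1.95 in the control library (quotient 1.03, 0.906 to 1.18).

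Cldn10, which forms ion pores, had 45 reads in the knockdown and 235 in the control library, 5.48-fold lower (log2 -2.46, -2.96 to -2.0). Cldn18, which has a lung form and a stomach form made from different starts, was less reduced. It had 960 and 1838 reads, 2.03-fold lower (log2 -1.02, -1.14 to -0.91), and the counts do not separate its forms. Cldn18 gave 2.3 reads per Cldn3 read in the knockdown and 1.0 in the control library (quotient 2.29, 2.01 to 2.62). Of 6 measured genes of alveolar type 1 cells, where Cldn18 is abundant later in life, 2 were higher (Hopx and Ager) and 2 lower. Akap5, with 559 and 1394 reads, was 1 of the lower genes.

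**Figure D1:**
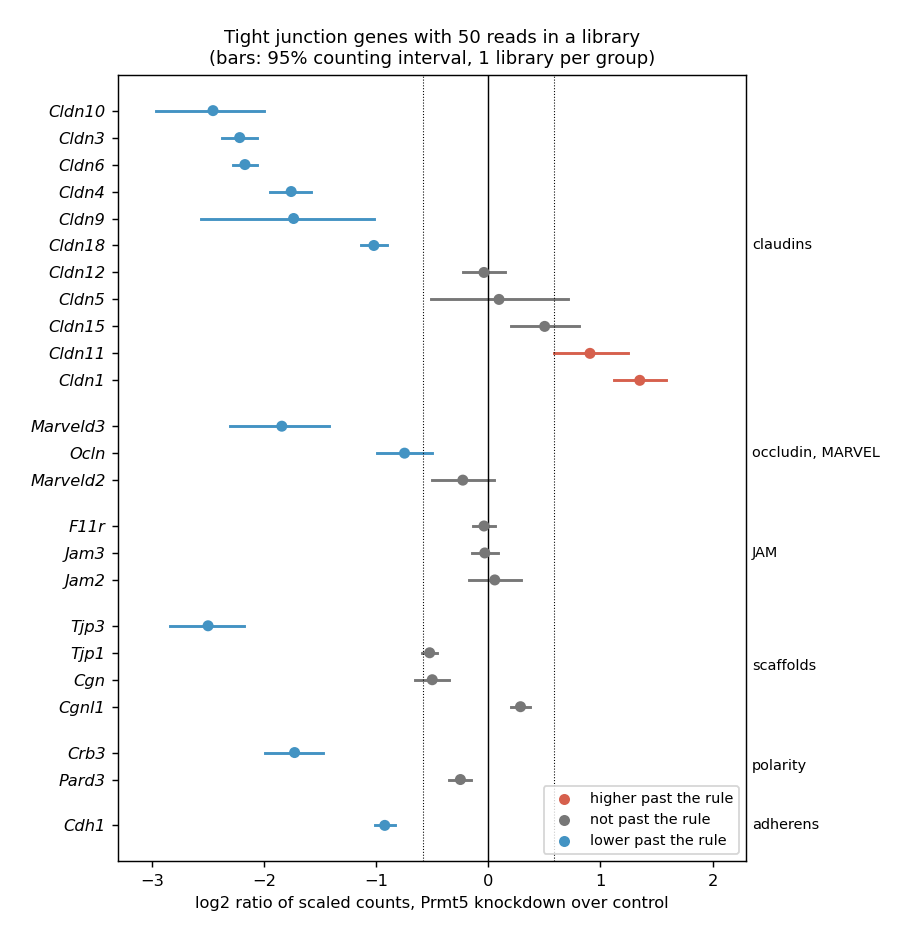
Log2 ratio of scaled counts, Prmt5 knockdown over control, for the 24 genes with 50 reads in a library, grouped by role. Points are ratios from 1 library per group, bars are 95% counting intervals, and dotted lines mark the ratio of 1.5 and its inverse; 11 genes lie left of the lines as lower and 2, Cldn1 and Cldn11, right of them as higher.

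Cldn1, the barrier claudin of skin that is also made in liver, was higher. It had 574 reads in the knockdown and 212 in the control library, 2.55-fold higher (log2 1.35, 1.12 to 1.59). Per Cldn3 read it gave 1.38 reads in the knockdown and 0.116 in the control library. Genes of stratified and thymus epithelium moved with it, since all 10 measured were higher (median log2 3.04), their summed FPKM was 96.0 in the knockdown and 24.0 in the control library, and Pax1 was at 0 control reads. Krt5, the basal cell keratin, had 1228 and 99 reads, Krt15 had 1662 and 418, and Sfn had 485 and 272. The summed FPKM of the liver list was 6769 in the knockdown and 50.4 in the control library. The part of these tissues in the Cldn1 difference was not tested.

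Cldn11, the claudin of central myelin and of testis, had 233 reads in the knockdown and 117 in the control library, 1.87-fold higher (log2 0.91, 0.58 to 1.24). Cldn15, a cation pore of the gut, had 233 and 155 reads and did not pass (log2 0.50, 0.20 to 0.81). All 8 mesothelium genes were higher (median log2 1.06), including Upk3b with 4864 and 2649 reads, Lrrn4 with 1506 and 528, and Wt1 with 1389 and 600. Their summed FPKM was 157.8 in the knockdown and 87.1 in the control library, with no member at 0. Cldn12, a claudin without the usual scaffold-binding tail, had 487 and 472 reads (log2 -0.04, -0.22 to 0.15). The part of mesothelium in these values was not tested, nor was that of the nerve and glia genes given further below.

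Of the 8 claudins below the minimum, Cldn2, Cldn14 and Cldn19 had more reads in the knockdown library. Cldn14, a claudin of inner ear, kidney and liver, had 32 reads in the knockdown and 0 in the control library, which is 10.06-fold higher with the control set to the limit of 3 reads, and the exact interval for 0 reads begins at log2 2.95. Cldn2, a cation pore that liver and kidney express, had 26 and 5 reads (log2 2.19, 0.89 to 4.03). Cldn8, a sealing claudin of the kidney collecting duct, had 4 reads in the knockdown and 40 in the control library (log2 -3.25, -5.35 to -1.94). Cldn7, which binds EPCAM, had 6 and 21 reads (log2 -1.81, -3.49 to -0.53), and Cldn22 had 3 and 11. For Cldn23, with 17 and 30 reads, and Cldn20, with 3 and 4, the interval included no difference. Cldn20 lies wholly within Tfb1m, so its few reads cannot be assigned with certainty. Cldn19, a claudin of kidney and Schwann cells, had 2 reads in the knockdown and 0 in the control library.

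The make-up of claudin transcripts shifted accordingly. Summed over the 19 claudins, the deposited FPKM was 81.6 in the knockdown and 255.6 in the control library. Cldn6, Cldn3 and Cldn4 together took 51.1% of it in the knockdown and 76.8% in the control library. With Cldn13, a claudin outside these 19, added to the sum, these shares were 31.1% in the knockdown and 76.6% in the control library, a comparison added after the values were seen. Among the 19 claudins, the share of Cldn6 was 26.9% and 41.7%, that of Cldn3 15.7% and 25.1%, and that of Cldn4 8.48% and 9.90%. Cldn18 took 16.2% in the knockdown and 11.3% in the control library, and Cldn1 took 8.40% and 1.13%. The share of Cldn18 was thus above that of Cldn4 in both libraries. Cldn18, which was less reduced, is not part of the summed set of Cldn6, Cldn3 and Cldn4. In the knockdown library the order per length ran Cldn6, Cldn18, Cldn3, Cldn4, Cldn1, and the counting intervals overlapped for Cldn18 (12.4 to 14.1 FPKM) and Cldn3 (11.6 to 14.1), and for Cldn4 (6.19 to 7.72) and Cldn1 (6.31 to 7.44). In the control library it ran Cldn6, Cldn3, Cldn18, Cldn4, Cldn10, with no overlap of counting intervals between neighbours. These orders rest on the lengths behind the deposited FPKM. At the annotated exon lengths Cldn3 (12.8 FPKM) came before Cldn18 (8.34) in the knockdown library. Cldn11 (4.82) came before Cldn1 (4.59) there, with Cldn4 at 6.91. In the control library Cldn4 (25.2) came before Cldn18 (18.3) and Cldn12 (4.94) before Cldn10 (4.02).

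**Figure D2:**
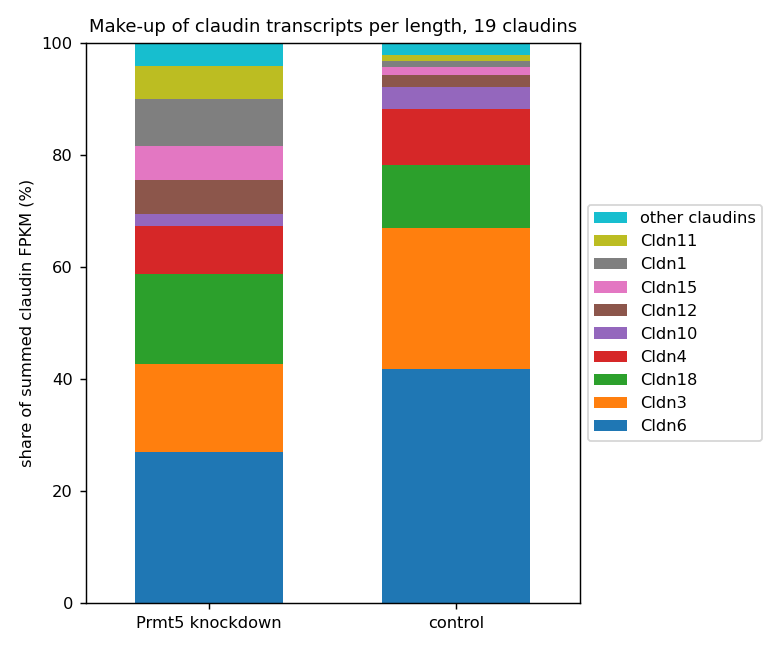
Share of the summed FPKM of the 19 claudins, Cldn13 not among them (percent, vertical axis), taken by each claudin in the Prmt5 knockdown library, left, and the control library, right. Cldn6, Cldn3 and Cldn4 make up 51.1% of the left bar and 76.8% of the right bar, and Cldn1 takes 8.40% and 1.13%.

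Cldn5, the principal claudin of blood vessels, had 51 reads in the knockdown and 45 in the control library, a log2 ratio of 0.10 (-0.51 to 0.71) that turned to -0.01 under scaling by total counts. Its deposited FPKM was 0.697 and 0.704, although the vessel genes Cdh5, Tie1 and Eng stood at 37.8, 40.7 and 44.8 FPKM in the knockdown and at 62.1, 63.2 and 45.4 in the control library. Of 16 endothelial genes 6 were lower and 1, Erg, was higher (median log2 -0.51). The length that the authors' FPKM implies for Cldn5 was 2832 bases, 2.0 times the 1416 bases of its annotated exons. For the other 31 genes this quotient lay between 0.334 and 1.18. At the annotated length Cldn5 would have 1.39 FPKM in the knockdown and 1.41 in the control library. That changes the length only, and whether the deposited read counts of Cldn5 are complete was not tested.

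Genes beside Cldn5 on chromosome 16 were uneven. Of the 10 measured genes nearest on each side, a set looked at after the values of Cldn5 were seen, 8 were higher and 7 lower, with log2 ratios between -4.93 and 4.4. Cdc45, which begins 3.60 kb after the start of Cldn5, had 843 reads in the knockdown and 228 in the control library. Ufd1 had 467 and 68, Mrpl40 had 256 and 11, and Septin5 had 44 and 707. Why the stretch is uneven was not tested, and the Cldn5 count is uncertain for that reason.

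**Figure D3:**
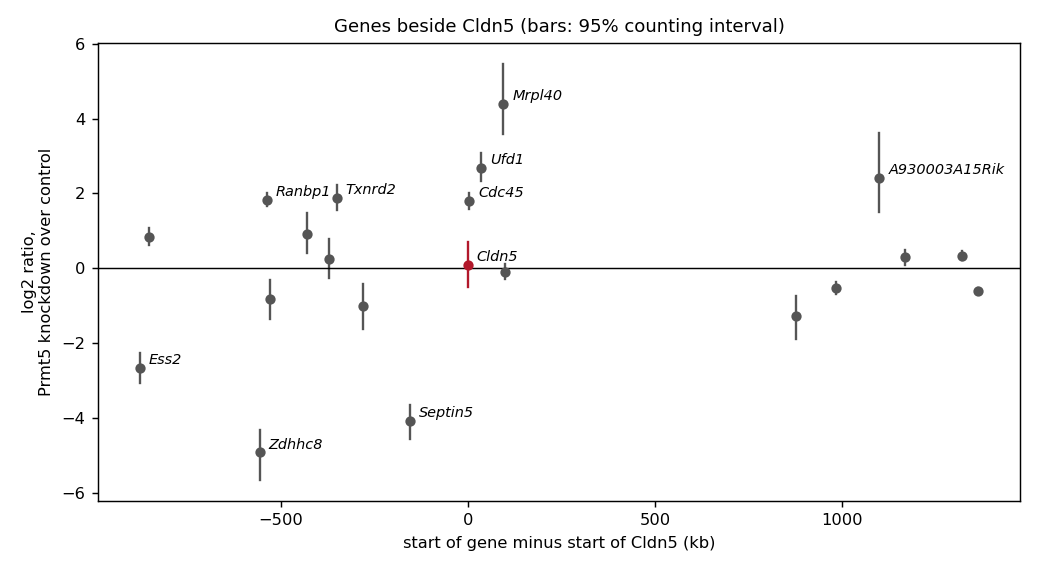
Log2 ratio of scaled counts, Prmt5 knockdown over control, of Cldn5 and the 10 nearest measured genes on each side, against the distance of each gene's start from that of Cldn5 in kb. Points are ratios from 1 library per group and bars are 95% counting intervals. Cldn5 lies at 0.10, with Septin5 next on its left at -4.07 and Cdc45 next on its right at 1.80. Mrpl40, further right, has the highest value at 4.4.

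Among the other membrane proteins of the junction, occludin and MARVELD3 were lower and the junctional adhesion molecules were near even. Ocln, the founding member of its family, had 224 reads in the knockdown and 355 in the control library, 1.68-fold lower (log2 -0.75, -1.0 to -0.50). Marveld3 had 57 and 194 reads, 3.58-fold lower (log2 -1.84, -2.30 to -1.42). Marveld2, the tricellulin of corners where cells meet, lies 43238 bases from Ocln and had 210 and 232 reads (log2 -0.23, -0.50 to 0.05). Marveld3 gave 0.271 reads per Marveld2 read in the knockdown and 0.836 in the control library (quotient 0.325, 0.225 to 0.466), so these relatives differed beyond counting error.

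F11r, the adhesion molecule JAM-A of epithelium, vessels and blood cells, had 1639 reads in the knockdown and 1588 in the control library (log2 -0.04, -0.14 to 0.06). Jam3, found in endothelium and mesenchyme among others, had 1255 and 1210 (log2 -0.03, -0.15 to 0.08). Jam2, known from endothelium, had 331 and 300 (log2 0.06, -0.17 to 0.29). All 3 intervals lay within the ratio of 1.5, and the sign of each value turned with the choice of scaling. In the control library F11r (28.3 FPKM), Jam3 (27.2) and Cdh1 (27.4) stood at levels whose counting intervals overlapped. In the knockdown library F11r (25.6) and Jam3 (24.7) stood above Cdh1 (13.4). There F11r was above every one of the 19 claudins beyond counting error, and the interval of Jam3 (23.3 to 26.1) overlapped that of Cldn6 (20.5 to 23.5). These levels rest on the lengths behind the deposited FPKM. Those were 0.616 of the annotated exons for Jam3, 0.932 for F11r, 0.969 for Cdh1 and 0.861 for Cldn6. At annotated lengths Jam3 would stand lower against the other 3, so its place among them depends on the length used.

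The scaffolds, which tie the strands to actin, split by gene. Tjp3, the zonula occludens protein ZO-3 that is largely confined to epithelia, had 92 reads in the knockdown and 493 in the control library, 5.65-fold lower (log2 -2.50, -2.84 to -2.18). Tjp1, the widespread ZO-1, had 2969 and 4025 reads and did not pass (log2 -0.52, -0.59 to -0.45). Tjp3 gave 0.0310 reads per Tjp1 read in the knockdown and 0.122 in the control library (quotient 0.253, 0.199 to 0.318). Cgn, cingulin, had 616 and 822 reads (log2 -0.50, -0.65 to -0.35). Its relative Cgnl1, paracingulin, had 2666 and 2061 (log2 0.29, 0.20 to 0.37). Neither passed, while the quotient of the pair was 0.579 (0.513 to 0.654). Tjp1 and Cgn sat close to the threshold, and both were lower past the rule under scaling by total counts, at -0.63 and -0.61.

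Of the polarity genes, Crb3, the Crumbs protein of epithelia that organises the apical side, had 168 reads in the knockdown and 526 in the control library, 3.31-fold lower (log2 -1.73, -1.99 to -1.48). Pard3, the scaffold of the PAR complex, had 1635 and 1833 reads (log2 -0.25, -0.35 to -0.15). Cdh1, E-cadherin of the adherens junction, had 1530 and 2738 reads, 1.90-fold lower (log2 -0.92, -1.01 to -0.83). Per Cldn3 read, Cdh1 gave 3.67 reads in the knockdown and 1.5 in the control library (quotient 2.45, 2.17 to 2.78). Cdh1 and Cldn18 kept nearly the same proportion, with 0.627 Cldn18 reads per Cdh1 read in the knockdown and 0.671 in the control library (quotient 0.935, 0.845 to 1.03).

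**Figure D4:**
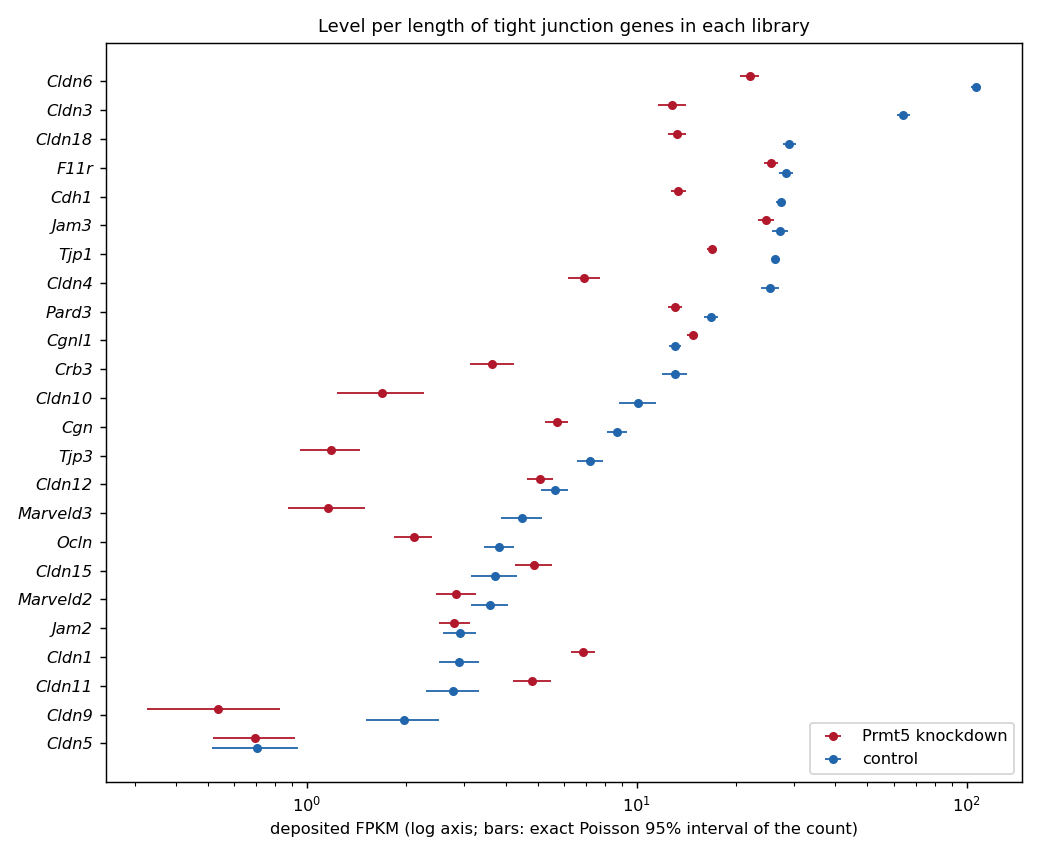
Deposited FPKM (horizontal log axis) of the 24 genes with 50 reads in a library, in the Prmt5 knockdown library (red, upper point of each pair) and the control library (blue, lower point), sorted by the control level, with exact Poisson 95% intervals of the counts. Cldn6 lies at 21.96 and 106.7 FPKM, F11r at 25.6 and 28.3, and Cldn1 at 6.85 and 2.90.

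Epithelial genes in general were lower beside these genes. Of 24 measured general epithelium genes 15 were lower and 1, Cd24a, which neurons and blood cells also make, was higher (median log2 -0.98). Cd24a had 15726 reads in the knockdown and 5519 in the control library, Krt8 had 3283 and 3358, and Spint2, a protease inhibitor, had 1843 and 3435. No member was at 0, and the summed FPKM, to which Cd24a added most, was 704.3 in the knockdown and 749.9 in the control library. Epcam, the epithelial adhesion molecule, had 689 and 3348 reads (log2 -2.36, -2.49 to -2.25). Cldn3 gave 0.605 reads per Epcam read in the knockdown and 0.547 in the control library, a quotient of 1.11 with an interval of 0.965 to 1.27. Cldn6 per Epcam read had a quotient of 1.14 (1.02 to 1.28), and Cldn18 and Cdh1 had quotients of 2.54 (2.26 to 2.85) and 2.72 (2.45 to 3.02). Cldn6, Cldn18 and Cdh1 were thus less reduced than Epcam beyond counting error, Cldn6 by the smallest margin of these, and for Cldn3 a difference from Epcam was not detectable at this depth. The part of the number of epithelial cells in these values was not tested.

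Other genes of tight junctions and cell polarity had a median closer to even than the genes above. Of 37 genes of this list in the tables, 33 were measured, 11 were lower, 3 were higher and 19 did not pass (median log2 -0.26). Ildr1, a tricellular junction protein, had 32 reads in the knockdown and 105 in the control library (log2 -1.78). The other lower genes lay between -0.88 and -0.61, among them Patj (-0.85) of the Crumbs complex, Prkci (-0.76) and Pard6g (-0.78) of the PAR complex, and Scrib (-0.65). Ildr2 (0.96) and Crb2 (0.70) were higher. The gene furthest from even was Cldn13, a claudin that mice express in blood-forming tissue and that lies 29592 bases from Cldn4. Cldn13 had 1443 reads in the knockdown and 16 in the control library (log2 6.37, 5.71 to 7.22), or 52.2 and 0.662 FPKM, above every one of the 19 claudins in the knockdown library. Red blood cell genes moved with it, with 10 of 12 higher (median log2 1.98, range 0.44 to 6.05), none at 0, and a summed FPKM of 58878 in the knockdown and 18619 in the control library. Their part in the Cldn13 value was not tested.

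Genes of adherens junctions and desmosomes, the spot-like junctions of heart and stratified epithelium, had values on both sides. Of 24 measured, 7 were higher, 7 lower and 10 did not pass (median log2 -0.34). The higher genes included the desmosomal Pkp1 with 129 and 10 reads (log2 3.54), Perp (3.03), Dsc2 (2.99), Pkp2 (2.15), Dsp (1.41) and Dsg2 (1.06). The lower genes included Epcam, the mesenchymal cadherin Cdh11 (-0.98), the epithelial plakophilin Pkp3 (-0.95), the actin linker Afdn (-0.82), the vessel cadherin Cdh5 (-0.61) and Nectin3 (-0.60). Heart muscle genes, which were higher throughout as given above, had a summed FPKM of 5786 in the knockdown and 206.6 in the control library, and their part in the desmosome values was not tested.

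**Figure D5:**
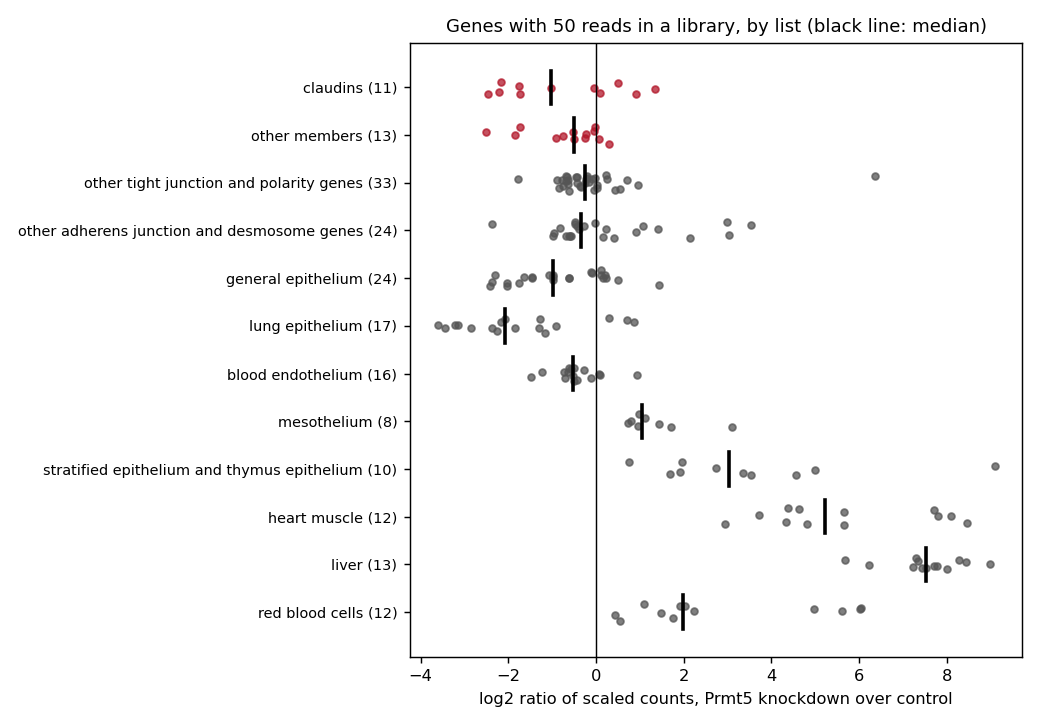
Log2 ratio of scaled counts, Prmt5 knockdown over control, of genes with 50 reads in a library, by list, with the number of genes in brackets and a black line at the median. The claudin median is -1.02, that of the general epithelium list -0.98, that of the lung epithelium list -2.07 and that of the liver list 7.53; Pax1, the rightmost point of the stratified and thymus list, had no control reads, so its place depends on the prior count.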

How the data were processed

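Polyadenylated RNA from 1 Prmt5 knockdown and 1 control pool was sequenced. The authors deposited raw read counts per gene and FPKM values; FPKM equalled the count over a whole-number length (within 0.001 bp) and the library total. Bowtie2 2.2.3, TopHat2 2.0.12, HTSeq 0.6.1 and build mm10 are named in the submitters' processing notes. Which annotation, strand setting and treatment of multiply mapped reads the authors used is not given in these sources, so similar or overlapping genes are uncertain. Symbols and coordinates came from RefSeq for GRCm38.p6, exon lengths and strands from GENCODE for GRCm38. The 138 entries without an NCBI number, with 0.0748% of knockdown and 0.0783% of control reads, stayed in the library sizes.

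Counts were scaled with edgeR 4.0.16 in R 4.3.3 (factors 0.963 for knockdown and 1.04 for control), with a prior count of 0.5. Intervals were exact Clopper-Pearson intervals of 2 counts given their sum; read proportions of gene pairs had exact conditional intervals. PCR copies are not independent molecules, so intervals and floors cover counting error only. The rule was tried on simulated counts of 41709 genes for knockdown over control, with counting error only and 200 genes changed. It called 56.0% of 50 genes set 1.5-fold higher, all 50 set 2-fold higher and 0.41% of unchanged genes. Differences near 1.5-fold are often missed, which follows from a threshold at that size. In the real libraries 33.0% of measured genes passed and spread between animals is unknown, so 0.41% is not their rate of false calls.

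Members and lists were chosen with earlier results of these data known, and gene pairs and the Cldn5 stretch after their values were seen. All 32 members are named. From the junction lists up to 6 higher and 6 lower genes are named, ranked by the interval bound nearest to no difference. From marker lists up to 3 genes with most reads, and up to 3 against the list's median, are named, with genes at 0 reads. Genes beside members were named after their values were seen. Some genes that this rule selects are not reported here. DESeq2 1.42.0 size factors and 10 other settings were tried.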

Additional observations from a re-analysis of the deposited data

How the results depend on the processing

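Across 11 alternatives of scaling, read minimum, ratio, prior count, FPKM and interval, the number of lower members stayed within 9 to 14 beside 11. The number of higher members was 2, except for 4 with a read minimum of 10, which adds Cldn2 and Cldn14, and 1 with a ratio of 2, which drops Cldn11. The median log2 ratio of -0.51 was -0.64 with a read minimum of 10, where 30 members are measured, and -0.73 as a mean in place of the median; under the scaling alternatives it lay between -0.62 and -0.46. No member past the rule changed sign under any of the 11. Of 352 member values under them, 331 stayed within their counting interval. The alternatives of read minimum, ratio and interval leave each log2 ratio as it is, so the values under these could not move. Total counts moved the median of all measured genes to -0.12 from -0.01, and the share of higher among genes past the rule to 52.3% from 62.7%. Tjp1 passed as lower under total counts and both FPKM settings, Cgn under total counts and FPKM with a pseudocount of 0.1. The signs of Cldn5 and Jam2 turned under total counts and FPKM, those of Cldn12, F11r and Jam3 when scaling used genes with at least 20 control reads (0.02 each). Leaving out a replicate was not possible with 1 library per group, and no paired analysis was possible because each group has 1 sample. Depth limits Cldn9, Cldn10, Cldn5 and the 8 claudins below 50 reads.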

Other observations

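The remaining marker lists gave the following values. Of 10 lung mesenchyme genes 6 were lower and 4 did not pass (median log2 -0.97), with Tbx4 at 1863 reads in the knockdown and 7324 in the control library, and the collagens Col1a1 (0.35) and Col3a1 (0.22) not past the rule. Of 8 measured nerve and glia genes 6 were higher, Tubb3 (1.89) and Sox10 (1.09) among them, and Erbb3 (-1.04) was lower. In the kidney list 9 of 12 genes were below 50 reads and Umod, Lhx1 and Slc12a3 were at 0 in both libraries; Cdh16 (-2.36) was lower and Six2 (3.54) was higher. In the stomach and intestine list 9 of 12 were below 50 reads, Cdx2, Gast, Gkn1 and Tff1 were at 0 in both libraries, Gata4 (2.89) and Barx1 (3.49) were higher, and Lgals4 (0.10) did not pass.

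Values of the nearest measured genes on the chromosome were as follows. Of 35 genes beside lower members, 2 on each side and members left out, 25 did not pass, 6 were lower and 4 were higher (median log2 -0.20), close to the background in which 33.0% of measured genes pass in either direction. Of 8 beside higher members, 2 were higher, 2 lower and 4 did not pass. Beside Cldn6, the neighbours Hcfc1r1 (1.42) and Tnfrsf12a (1.31) were higher and Pkmyt1 (-0.70) was lower. Beside Cldn3, Abhd11 stood at -0.11 and Mettl27 at -0.24. Trp63, the factor of basal and stratified epithelium, is among the nearest measured genes of Cldn1. It had 171 reads in the knockdown and 41 in the control library (log2 1.96). Trp63 lies from 25683763 to 25892088 on chromosome 16 and Cldn1 from 26356645 to 26371839, with P3h2 between them. The other neighbours of Cldn1 were Il1rap, which is nearer and was lower (-0.60), and P3h2 (-0.55) and Ccdc50 (-0.19), which did not pass.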
